A study of Homo sapiens with 6 samples.

Results

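The genes described here are 36 named genes of the unfolded protein response and of the related ATF4 response, measured by RNA sequencing in a paclitaxel-resistant breast cancer line and in its parental line. They were taken by a list of gene symbols, a rule that uses no measured value, from the 28395 genes in the count table. All 36 were found, and all 36 passed the filter on low counts that left 13950 genes for testing. By role the list holds 14 chaperones and folding enzymes of the endoplasmic reticulum (ER), 5 genes of ER-associated degradation, 4 genes for stress sensors and XBP1, 8 for ATF4 and its targets, and 5 enzymes of serine synthesis and cysteine formation.

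The resistant line was MDA-MB-468-PR, which the submitters derived from MDA-MB-468 by 2 months of culture in 3 to 4.5 nM paclitaxel. The control was the parental MDA-MB-468, an established human line of triple-negative breast cancer, a tumour class defined by little or no oestrogen and progesterone receptor and no ERBB2 amplification. Paclitaxel binds microtubules and blocks mitosis. There were 3 libraries of each line, and all 6 were labelled untreated, so none gives the acute response to the drug. Both lines grew in DMEM with fetal bovine serum, and neither was labelled as carrying an allele or a stress agent. Resistant replicate 1 and control replicate 1 belonged to a 2020 batch and the other 4 libraries to a 2021 batch. All resistant libraries came from 1 derivative of 1 parental line. The labels do not say whether the 3 libraries of a line came from separate cultures, so each p-value below reflects library-to-library variation that may be technical in origin.

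The ER folds secreted and membrane proteins. When unfolded proteins build up there, the membrane sensors IRE1 (gene ERN1), PERK (gene EIF2AK3) and ATF6 are released from the chaperone BiP (gene HSPA5). IRE1 splices the XBP1 transcript so that it encodes an active transcription factor, ATF6 is cut in the Golgi to free its own, and both raise chaperone and degradation genes. PERK phosphorylates the initiation factor eIF2, which lowers general translation while favouring translation of ATF4. Other kinases that sense amino acid lack, double-stranded RNA or haem lack reach ATF4 by the same step, so ATF4 targets also include genes of amino acid supply. These counts measure transcript level. They do not show XBP1 splicing, ATF6 cleavage, eIF2 phosphorylation or ATF4 protein.

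The regulatory letters that define the branches can be read in the RefSeq promoter windows (GRCh38.p14), each running from 250 bases before an annotated transcript start of a gene to 50 bases after it. The table held a window for 32 of the 36 genes, and PDIA3, DERL1, PSPH and SHMT2 were not matched. The ER stress element was searched as CCAAT, then any 9 bases, then CCACG. ER stress element II was searched as ATTGG, any 1 base, then CCACG, the unfolded protein response element as TGACGTGG, and the amino acid response element bound by ATF4 with CEBP partners as TGATGNAA, all on both strands. The 6 stretches below run 5′ to 3′ on the gene's own strand and end at the base before a transcript start given by the table, and capitals mark the matches. For ASNS that start lies inside the gene, whose annotated span is 97851677 to 97928441 on chromosome 7. HSPA5 at chr9:125241344-125241453 (minus strand) and HSP90B1 at chr12:103930200-103930409 (plus strand) are shown as chaperones with the ER stress element. XBP1 at chr22:28800570-28800679 (minus strand) is shown because it carries the same element and had the lowest line difference of the 36 genes. HYOU1 at chr11:119057206-119057415 (minus strand) shows ER stress element II, whose upstream copy overlaps the unfolded protein response element. ASNS at chr7:97872409-97872518 (minus strand) and CHAC1 at chr15:40953241-40953470 (plus strand) show the amino acid response element, on opposite strands.
HSPA5: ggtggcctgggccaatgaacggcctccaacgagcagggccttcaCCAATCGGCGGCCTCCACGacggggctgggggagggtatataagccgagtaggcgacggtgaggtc
HSP90B1: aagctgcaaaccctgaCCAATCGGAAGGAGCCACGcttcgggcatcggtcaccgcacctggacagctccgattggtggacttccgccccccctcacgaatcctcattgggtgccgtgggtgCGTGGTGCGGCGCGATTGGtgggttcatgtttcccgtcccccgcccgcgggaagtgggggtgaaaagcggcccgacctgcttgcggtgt
XBP1: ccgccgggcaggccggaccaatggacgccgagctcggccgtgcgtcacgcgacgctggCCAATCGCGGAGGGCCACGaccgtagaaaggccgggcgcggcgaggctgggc
HYOU1: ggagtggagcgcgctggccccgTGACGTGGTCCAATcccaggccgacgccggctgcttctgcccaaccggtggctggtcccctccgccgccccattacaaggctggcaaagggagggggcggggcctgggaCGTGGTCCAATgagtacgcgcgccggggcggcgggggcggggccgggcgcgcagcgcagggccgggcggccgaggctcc
ASNS: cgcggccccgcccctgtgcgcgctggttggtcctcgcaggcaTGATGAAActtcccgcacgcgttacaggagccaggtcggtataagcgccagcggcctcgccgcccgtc
CHAC1: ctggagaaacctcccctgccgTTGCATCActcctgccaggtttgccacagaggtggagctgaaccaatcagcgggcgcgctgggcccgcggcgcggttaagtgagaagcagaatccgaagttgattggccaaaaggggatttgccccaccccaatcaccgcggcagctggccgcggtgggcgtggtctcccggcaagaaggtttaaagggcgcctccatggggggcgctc

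The ER stress element was found in the windows of 7 members, namely HSPA5, HSP90B1, PDIA6, CALR, CANX, CRELD2 and XBP1, while 25 of all 27305 genes with a window (0.0916%) held it. ER stress element II was found in SDF2L1, HYOU1 and HERPUD1, and in 19 of all genes (0.0696%). The unfolded protein response element was found in HYOU1 alone among the members, and in 253 of all genes (0.927%). The amino acid response element was found in HERPUD1, CHAC1 and ASNS, and in 1217 of all genes (4.46%). A match describes the letters of the window and is not a measured binding site.

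**Figure D1:**
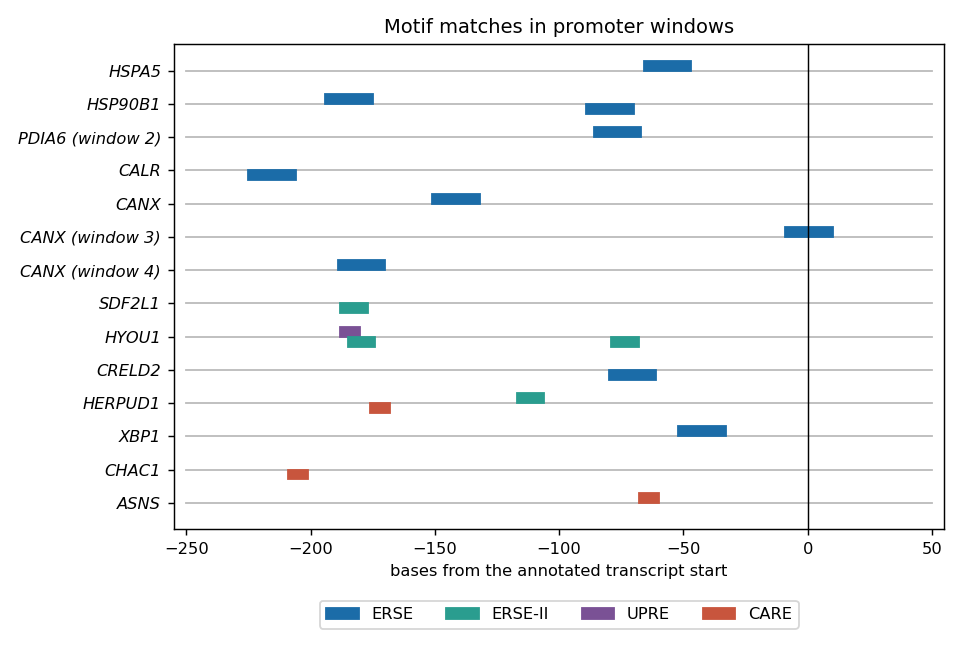
Positions of the 4 searched motifs, in bases from the transcript start of the window (x axis), in the members' promoter windows that hold at least 1 match. Each row is 1 window of a gene, so CANX fills rows for windows 1, 3 and 4, and PDIA6 is shown by window 2. The ER stress element lay in 7 members, and in HYOU1 the unfolded protein response element and ER stress element II overlap.

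The libraries held 37889818, 63073979 and 93680129 counts in resistant replicates 1, 2 and 3, and 41343499, 59171296 and 66475627 in control replicates 1, 2 and 3. A count of 0 allows up to 3 counts, which is 0.0320 to 0.0792 CPM (counts scaled by library size and TMM factor, the unit of levels below) by library and far below the level of any member. The epithelial marker list summed to 9479 to 12406 CPM in resistant and 7283 to 9569 CPM in control libraries. EGFR, the only gene of that list to be called, had 7370.3, 5101 and 5418 CPM in resistant and 5214, 2908 and 3199.5 CPM in control libraries, and the list's median log2 difference was 0.0063. The fibroblast list summed to 23.8 to 28.6 CPM in resistant and 24.9 to 31.0 CPM in control libraries, the leukocyte list to 10.5 to 18.1 CPM in resistant and 10.8 to 21.1 CPM in control libraries, and the endothelial list to 15.6 to 66.0 CPM in resistant and 9.28 to 25.7 CPM in control libraries. The list of hormone receptors and ERBB2 summed to 94.5 to 119 CPM in resistant and 107 to 143 CPM in control libraries. LUM (fibroblast list) and PGR (receptor list) had 0 counts in all 6 libraries, but other genes of these lists were detected. By library, COL1A1 of the fibroblast list had 833 to 2453 counts. In the receptor list ESR1 had 50 to 183 counts and ERBB2 4337 to 9006. The mitochondrially encoded share of counts was 0.0922% to 0.154% in the 4 libraries of 2021, against 0.251% (resistant) and 0.280% (control) in 2020.

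Most members were expressed well above the median tested gene in both lines. On the scale of CPM per kilobase of merged exon, the median member stood at the 88.5 percentile of the tested genes with a length, and 13 of the 36 were in the top 5%. The most abundant per length was CALR (calreticulin, a lectin chaperone that binds calcium), with a mean level of 447 CPM per kilobase in resistant and 486 in control libraries. ATF4 followed with 320 CPM per kilobase in resistant and 354 in control libraries. HSP90B1 had 294 CPM per kilobase in resistant and 307 in control libraries, CANX 279 in resistant and 314 in control, and PHGDH 216 in resistant and 273 in control. The lowest was ERN1 at 1.27 CPM per kilobase in resistant and 1.41 in control libraries, at the 22.7 percentile. By group, the median percentile was 96.8 for the chaperones, 95.7 for the serine and cysteine enzymes, 87.8 for ATF4 and its targets, 68.8 for the sensors and XBP1, and 58.7 for the degradation genes.

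**Figure D2:**
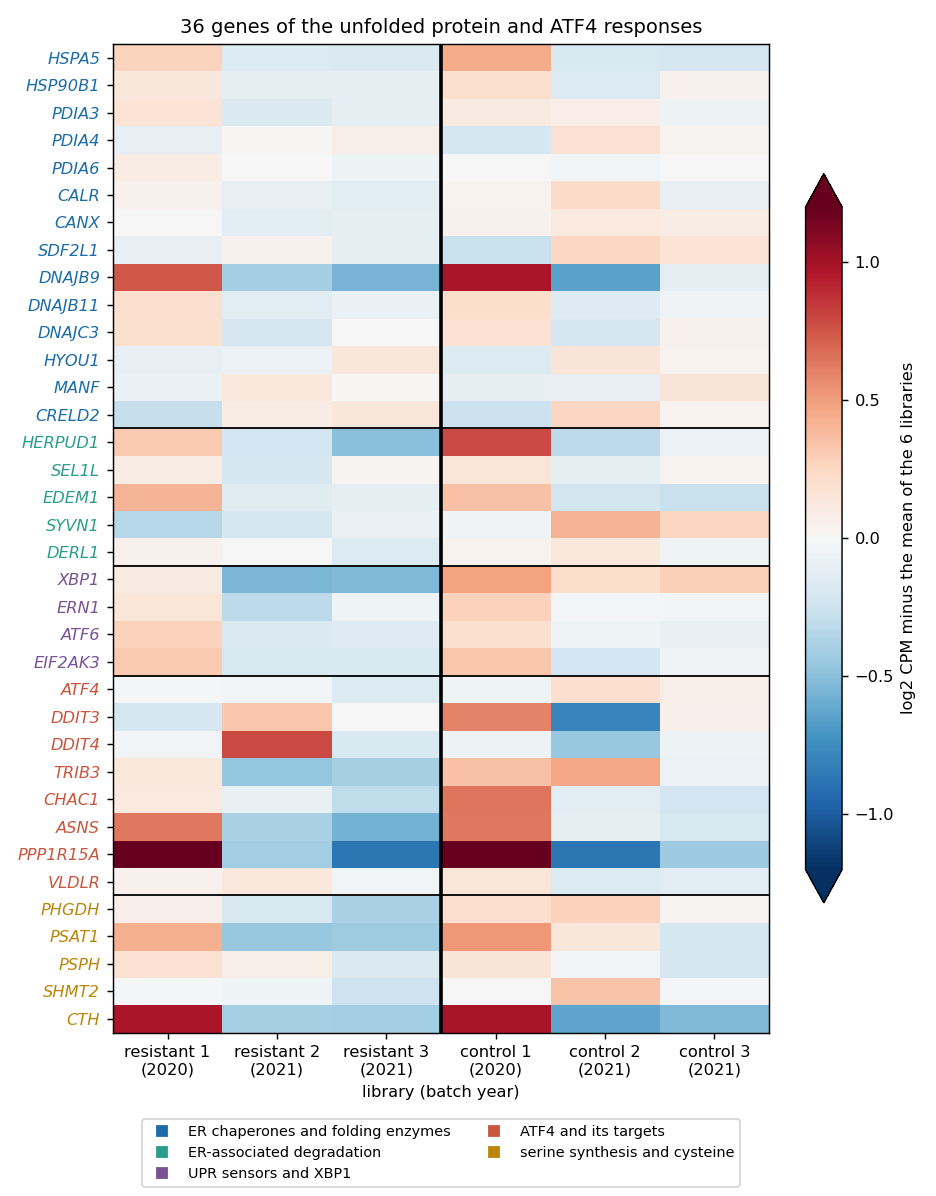
Heat map of each of the 36 genes (rows, grouped by role) in each of the 6 libraries (columns). Colour gives the log2 of TMM-scaled CPM minus the gene's mean over the 6 libraries, with the scale cut off at both ends. The levels of the 2 lines overlap for 32 genes, and CANX, SYVN1, XBP1 and SHMT2 have all 3 resistant libraries below all 3 control libraries.

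The first comparison asked whether the resistant line carried a different level of these transcripts from its parent with no drug present. Of the 36 genes, 2 were lower in resistant cells and 0 were higher at an adjusted p under 0.05 in edgeR's quasi-likelihood test with a batch term. XBP1, which encodes the transcription factor made active by IRE1, and SYVN1, which encodes the ubiquitin ligase HRD1 of ER-associated degradation, were the pair that fell. Over all tested genes 5.48% were called lower and 6.23% higher, so the members' 2 of 36 called lower is near that background. At an unadjusted p under 0.05 there were 5 members lower and 0 higher, against 12.7% lower and 13.6% higher of all tested genes. DESeq2 called 4 members lower and 0 higher, against 7.77% lower and 8.03% higher of all genes.

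The median log2 difference, resistant minus control, was -0.06 over the 36 genes and -0.00 over all tested genes. The difference was below 0 for 28 of the 36 genes (77.8%), against 50.6% of all tested genes. Within 2020 it was below 0 for 22 of the 36 and within 2021 for 27. The sign was the same in both batches for 21 of the 36, against 9773 of all 13950 tested genes. The differences were small: the median absolute log2 difference was 0.10 for members and 0.19 for all tested genes. The 95% interval of the difference lay within 1.5-fold in either direction for 29 of 36 members (80.6%), against 56.4% of tested genes, and within 2-fold for 35 of 36 (97.2%), against 79.2%. The exception to the 2-fold bound was DDIT4. In 4 members (CANX, SYVN1, XBP1 and SHMT2) all 3 resistant libraries lay below all 3 control libraries, and in 0 members above them. That separation below was seen in 10.2% of all tested genes and the separation above in 10.7%.

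**Figure D3:**
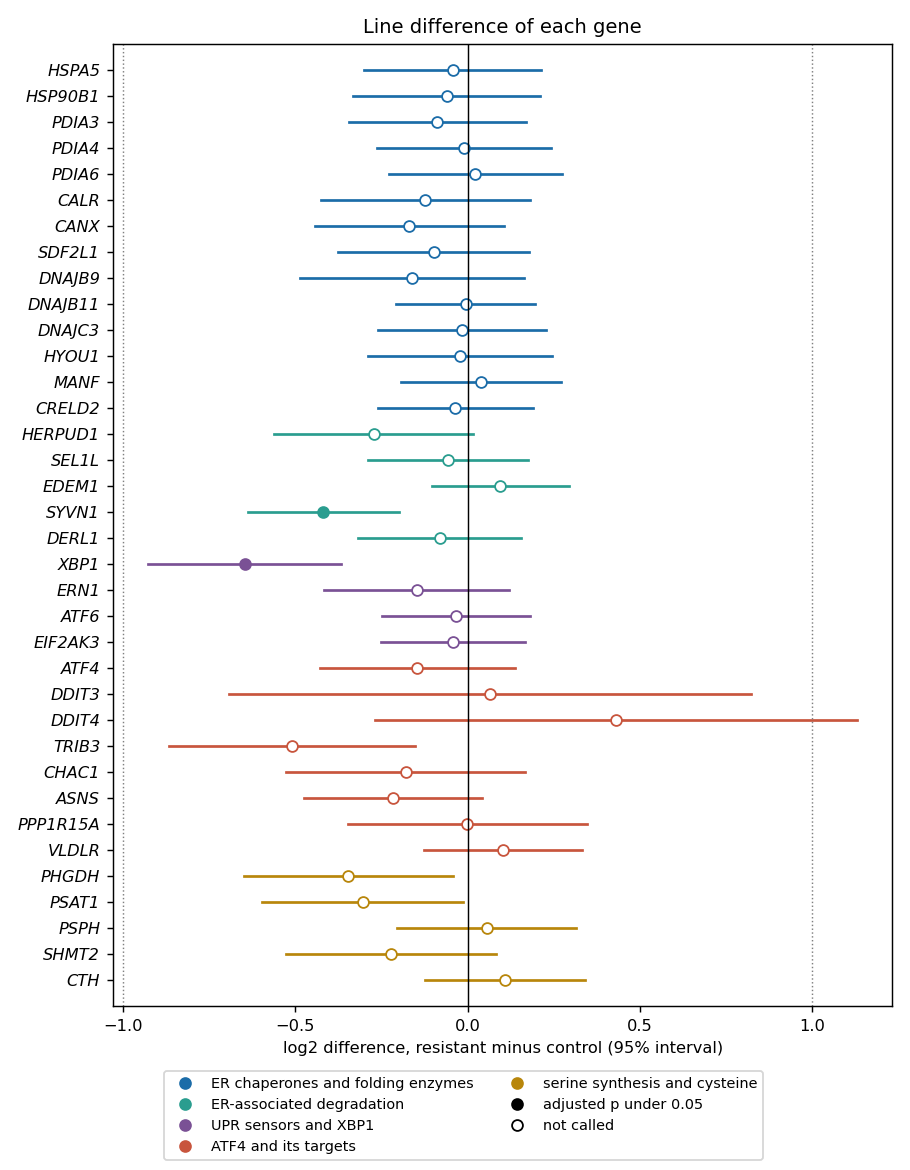
Log2 difference in level, resistant minus control, for each of the 36 genes (points) with its 95% interval (bars), grouped by role, from the fit with a batch term. XBP1 at -0.65 and SYVN1 at -0.42 are the members past the threshold, and the interval of DDIT4 (point at 0.43) reaches the highest value.

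Among the sensors and XBP1, XBP1 fell and no other was called. XBP1 (chromosome 22, 28794560 to 28800569) had 356, 225 and 227 CPM in resistant replicates 1, 2 and 3, against 459, 380.3 and 400.2 CPM in control replicates 1, 2 and 3. All resistant libraries were below all control libraries, and the 2 resistant libraries of 2021 were lowest. The means were 269 ± 74.8 CPM in resistant and 413 ± 41.1 CPM in control cells (SD, n = 3 each), which the fit put at a log2 difference of -0.65 ± 0.12 (SE), or 1.57-fold lower, with an adjusted p of 0.0114 and a 95% interval of -0.93 to -0.37. The difference was -0.79 within 2021 and -0.37 within 2020. The call was lost without resistant replicate 2 (adjusted p = 0.0688), without resistant replicate 3 (adjusted p = 0.0737) and with no batch term (adjusted p = 0.180), at log2 differences between -0.80 and -0.59 over all alternatives.

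The sensors that act upstream of XBP1 and ATF4 differed little. ERN1, the kinase and endoribonuclease that splices XBP1, had 14.4, 10.5 and 12.6 CPM in resistant and 15.8, 12.9 and 12.8 CPM in control libraries, with a log2 difference of -0.15 ± 0.12 (adjusted p = 0.470). ATF6, the sensor that becomes a transcription factor, had 144, 106 and 107 CPM in resistant and 136, 115 and 112 CPM in control libraries, a difference of -0.03 (adjusted p = 0.856). EIF2AK3 had 83.2, 58.8 and 59.0 CPM in resistant and 84.4, 57.1 and 65.2 CPM in control libraries, a difference of -0.04 (adjusted p = 0.802). In each of these sensors the library of a line from 2020 was higher than its libraries from 2021, and the lines overlapped.

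Of the 5 degradation genes, which move misfolded proteins out of the ER to the proteasome, SYVN1 fell and the other 4 were not called. SYVN1 (chromosome 11, 65127279 to 65134519) had 43.7, 48.2 and 52.5 CPM in resistant libraries, against 54.0, 73.5 and 66.4 CPM in control libraries. The ranges did not overlap, though the highest resistant library (52.5 CPM, 2021) and the lowest control library (54.0 CPM, 2020) were close. The means were 48.1 ± 4.37 CPM in resistant and 64.7 ± 9.88 CPM in control cells (SD, n = 3 each), a log2 difference of -0.42 ± 0.10 (SE), or 1.34-fold lower, with an adjusted p of 0.0254 and an interval of -0.64 to -0.20. Within batches the difference was -0.47 in 2021 and -0.30 in 2020. The call was lost with no batch term (adjusted p = 0.225) and without resistant replicate 2 (0.147) or 3 (0.104). It was also lost with the 2021 libraries alone (0.0684) and without resistant replicate 1 (0.0682) or control replicate 1 (0.0634). With either 2020 library left out the batch term absorbs the other, so these last settings all compare the 2021 libraries and are not separate checks. The log2 difference lay between -0.49 and -0.36 over all alternatives.

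SEL1L, the scaffold that holds the SYVN1 ligase, did not follow it past the threshold, with 58.6, 47.4 and 56.4 CPM in resistant and 60.8, 51.2 and 56.8 CPM in control libraries (log2 difference -0.06, adjusted p = 0.767). HERPUD1, a membrane partner of the same complex, had 192, 132 and 109 CPM in resistant and 267, 124 and 147 CPM in control libraries (-0.27 ± 0.13, adjusted p = 0.214). The lines overlapped in both genes, and for HERPUD1 the library of 2020 was the highest of each line. EDEM1, which directs misfolded glycoproteins to degradation, had a difference of 0.09 ± 0.09 (adjusted p = 0.538). DERL1, a membrane protein of the export channel, had a difference of -0.08 (adjusted p = 0.663). The difference between SYVN1 and its partners was not itself tested.

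**Figure D4:**
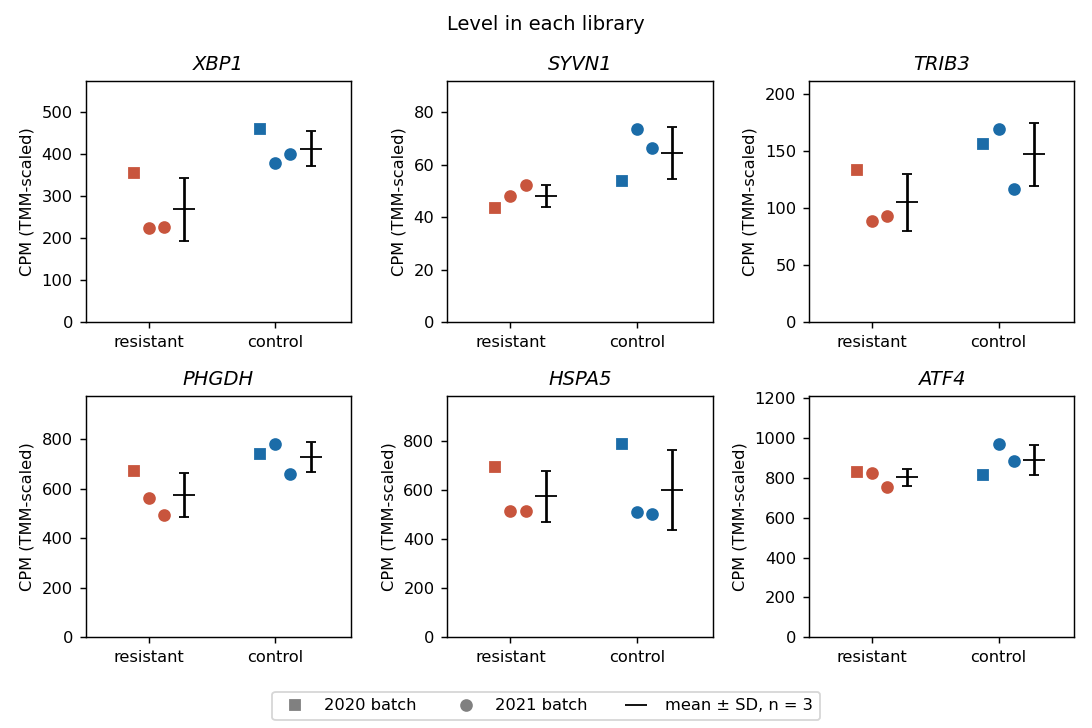
TMM-scaled CPM of XBP1, SYVN1, TRIB3, PHGDH, HSPA5 and ATF4 in each library, with resistant left of control, batch marked by symbol, and the group mean as a line. XBP1 and SYVN1 have no overlap between the lines, while HSPA5 has a library near 694 (resistant) and one near 788 (control) from 2020 and 4 libraries between 503 and 517 from 2021.

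None of the 14 chaperones and folding enzymes was called by edgeR, 0 had an unadjusted p under 0.05, and DESeq2 called 0. In addition, the 95% interval of all 14 lay within 1.5-fold in either direction. HSPA5, the BiP chaperone that holds the sensors inactive and is the usual reporter of this response, had 694, 517 and 514 CPM in resistant libraries, against 788, 511 and 503 CPM in control libraries. The 2 lines overlapped fully, and the libraries of 2020 were the high ones in both. Its log2 difference was -0.04 ± 0.11 (adjusted p = 0.840), with an interval of -0.30 to 0.21. HSP90B1, the ER member of the HSP90 family, had 943, 789 and 798 CPM in resistant and 980.3, 767 and 890.2 CPM in control libraries, a difference of -0.06 ± 0.12 (adjusted p = 0.787).

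The lectin chaperones hold glycoproteins during folding, and CANX (calnexin, the membrane-bound one) had the lowest difference of this group. CANX had 1310.5, 1199.7 and 1212 CPM in resistant and 1359, 1427 and 1398 CPM in control libraries. Every resistant library was below every control library, but the difference of -0.17 ± 0.12 had an adjusted p of 0.415 and an interval of -0.44 to 0.10. CALR had 916, 828 and 807 CPM in resistant and 913, 1037 and 824 CPM in control libraries, which overlapped, and its difference was -0.12 ± 0.13 (adjusted p = 0.603).

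The protein disulfide isomerases, which form and reshuffle disulfide bonds, lay close to 0. PDIA3 had a difference of -0.09 ± 0.11 (adjusted p = 0.664), PDIA4 of -0.01 ± 0.11 (adjusted p = 0.961) and PDIA6 of 0.02 ± 0.11 (adjusted p = 0.925). The co-chaperones of BiP were likewise not called: DNAJB11 had -0.01 (adjusted p = 0.976), DNAJC3 -0.02 (adjusted p = 0.941), SDF2L1 -0.10 (adjusted p = 0.652) and HYOU1, its nucleotide exchange factor, -0.02 (adjusted p = 0.927). MANF, a secreted protein that binds BiP, had 0.04 (adjusted p = 0.849), and CRELD2, another secreted ER stress protein, had -0.04 (adjusted p = 0.849). DNAJB9, a BiP co-chaperone that recruits BiP to IRE1, had 37.7, 16.9 and 15.3 CPM in resistant and 44.3, 14.4 and 20.7 CPM in control libraries. Its line difference was -0.16 ± 0.14 (adjusted p = 0.514), while the libraries of 2020 were above those of 2021 in both lines.

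None of ATF4 and its 7 targets was called by edgeR, while 1, TRIB3, had an unadjusted p under 0.05 and was called by DESeq2. ATF4, the transcription factor of this arm, is regulated largely at translation, so its transcript is a partial reading of it. It had 831, 825 and 754 CPM in resistant and 817, 970.1 and 885 CPM in control libraries, which overlapped. The means were 803 ± 42.9 CPM in resistant and 891 ± 76.7 CPM in control cells (SD, n = 3 each), a log2 difference of -0.15 ± 0.12 (adjusted p = 0.497).

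TRIB3, a pseudokinase that ATF4 induces and that binds ATF4 in turn, came nearest to a call in this group. It had 133, 88.5 and 93.0 CPM in resistant and 156, 169 and 116 CPM in control libraries, so the highest resistant library lay above the lowest control library. The difference of -0.51 ± 0.16 had an interval of -0.87 to -0.15 and an adjusted p of 0.0725. It passed the threshold with DESeq2 (adjusted p = 0.0205), with no filter (0.0137), without control replicate 3 (0.0115) and with the replicate numbers crossed within 2021 as a block (0.0322).

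The stress effectors did not share a direction. DDIT3, which encodes the transcription factor CHOP, had 6.57, 9.44 and 7.57 CPM in resistant and 11.4, 4.36 and 7.86 CPM in control libraries, a difference of 0.06 ± 0.32 (adjusted p = 0.925). Within 2021 it differed by 0.53 and within 2020 by -0.79, and the test of that dependence on batch had an unadjusted p of 0.0360 and did not pass after adjustment. DDIT4, which encodes the mTORC1 inhibitor REDD1, had 56.2, 99.5 and 50.5 CPM in resistant and 55, 41.9 and 55.2 CPM in control libraries, so resistant replicate 2 stood high alone. Its difference was 0.43 ± 0.29 with an interval of -0.27 to 1.13 (adjusted p = 0.399). CHAC1, an enzyme that degrades glutathione, had 9.10, 7.86 and 6.81 CPM in resistant and 13.1, 7.63 and 7.14 CPM in control libraries (-0.18 ± 0.15, adjusted p = 0.495). The lines overlapped in all of these genes.

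PPP1R15A, which encodes GADD34, the phosphatase subunit that reverses eIF2 phosphorylation, had 242, 73.9 and 54.2 CPM in resistant and 245, 54.2 and 73.3 CPM in control libraries. The 2 lines matched closely within 2020 and overlapped within 2021, and the line difference was -0.00 ± 0.15 (adjusted p = 0.998). ASNS, asparagine synthetase, had 254, 125 and 111 CPM in resistant and 254, 152 and 144 CPM in control libraries (-0.22 ± 0.11, adjusted p = 0.269). VLDLR, a lipoprotein receptor with ATF4-dependent expression, had a difference of 0.10 ± 0.10 (adjusted p = 0.565).

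None of the 5 serine and cysteine enzymes was called by edgeR, while 2 (PHGDH and PSAT1) had an unadjusted p under 0.05 and DESeq2 called 1 (PHGDH). This group had the lowest median difference of the 5 groups, -0.22. PHGDH, which commits glycolytic carbon to serine, had 669, 562 and 492 CPM in resistant and 739.8, 779 and 659 CPM in control libraries. Its means were 575 ± 89.3 CPM in resistant and 726 ± 61.1 CPM in control cells (SD, n = 3 each), with only resistant replicate 1 reaching above a control library. The difference was -0.35 ± 0.13, with an interval of -0.65 to -0.04 and an adjusted p of 0.138, and with DESeq2 the adjusted p was 0.0480.

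PSAT1, the transaminase that follows PHGDH, had 256, 139 and 141 CPM in resistant and 272, 209 and 164 CPM in control libraries (-0.30 ± 0.13, adjusted p = 0.173). Within each batch the resistant libraries were the lower ones. PSPH, the phosphatase of the last step, had 274, 255 and 215 CPM in resistant and 269, 237 and 210.3 CPM in control libraries (0.05, adjusted p = 0.799). SHMT2, which passes the serine carbon to the mitochondrial folate pool, had 202, 198 and 173 CPM in resistant and 205, 261 and 204 CPM in control libraries. Its ranges did not overlap, though resistant replicate 1 (202 CPM) was close to control replicate 3 (204 CPM), and the difference was -0.22 ± 0.13 (adjusted p = 0.331). CTH, which makes cysteine from cystathionine, had 41.1, 15.8 and 15.7 CPM in resistant and 41.6, 13.5 and 14.5 CPM in control libraries (0.11 ± 0.10, adjusted p = 0.550).

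Set side by side, the 5 groups had 0 members called higher, and members called lower stood in the degradation genes (1 of 5) and in the sensors and XBP1 (1 of 4). The median log2 difference was -0.04 for the chaperones, -0.08 for degradation, -0.10 for the sensors and XBP1, -0.07 for ATF4 and its targets, and -0.22 for serine and cysteine. Within batches the serine and cysteine median was -0.32 in 2021 and -0.02 in 2020, and the chaperone median was -0.06 in 2021 and 0.01 in 2020. The share of members below 0 was 12 of 14 chaperones, 4 of 5 degradation genes, 4 of 4 sensors and XBP1, 5 of 8 ATF4 genes and 3 of 5 serine and cysteine genes. Over all tested genes it was 50.6%. In the same order, the numbers below 0 were 6, 3, 3, 6 and 4 within 2020, and 12, 4, 4, 4 and 3 within 2021. No difference between groups was tested.

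The line difference can also be described by promoter letters, with no test of the difference between the sets. The 10 members with an ER stress element of either kind had a median difference of -0.08, with 9 below 0 and 1 called (XBP1). The 22 members with a window and neither element had a median of -0.04, with 16 below 0 and 1 called (SYVN1).

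The second comparison was between the batches, because many members varied more with it than with the line. In the same fit, 14 of the 36 genes differed between the 2021 and 2020 libraries at an adjusted p under 0.05, of which 13 were lower in 2021 and 1, CRELD2, was higher. Over all tested genes 11.4% were called lower in 2021 and 11.5% higher. The batch difference was larger in size than the line difference in 26 of 36 members (72.2%), against 60.2% of tested genes. The 2020 batch holds 1 library of each line, and the labels give a batch date with no account of what differed.

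PPP1R15A had the largest batch difference, a log2 difference (2021 minus 2020) of -1.93, or 3.81-fold lower in 2021 (adjusted p = 0.000256). CTH was 2.78-fold lower in 2021 (adjusted p = 0.000139), DNAJB9 2.43-fold lower (adjusted p = 0.00140), ASNS 1.93-fold lower (adjusted p = 0.00211), HERPUD1 1.78-fold lower (adjusted p = 0.00578) and PSAT1 1.64-fold lower (adjusted p = 0.0101). HSPA5 had a batch difference of -0.53 (adjusted p = 0.0167), XBP1 of -0.45 (adjusted p = 0.0370), EDEM1 of -0.57 (adjusted p = 0.00605) and EIF2AK3 of -0.48 (adjusted p = 0.0123). The genes lower in 2021 thus came from every one of the 5 groups, with DNAJB11, ATF6 and CHAC1 as the others. CRELD2 had a batch difference of 0.40 (adjusted p = 0.0310). The mitochondrially encoded share of counts, given above, was also lower in 2021, and its part in these differences was not tested.

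**Figure D5:**
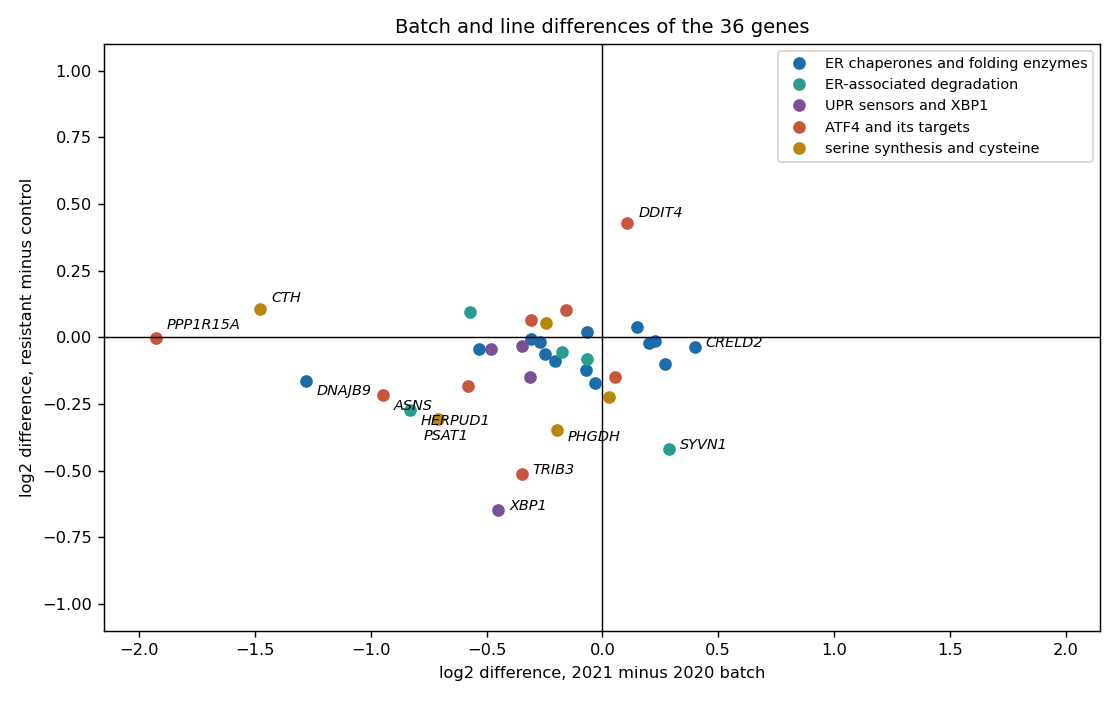
Log2 difference between batches (2021 minus 2020) against log2 difference between lines (resistant minus control) for the 36 genes, 1 point per gene coloured by role. PPP1R15A at -1.93, CTH and DNAJB9 lie far down the batch axis near 0 on the line axis, and XBP1 is the member farthest to the lower side of the line axis.

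Whether the line difference depended on the batch was tested by an interaction term. Of all 13950 genes 0 were called (0%), and of the members 1, DDIT3, had an unadjusted p under 0.05, as did 187 of all tested genes. With 2 residual degrees of freedom in that fit, a dependence of moderate size could have gone undetected.

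Further genes of the same pathways were taken from lists beyond the 36. Of 28 other ER folding and glycosylation genes 0 were higher and 4 were lower (14.3%, against 5.48% of all tested genes): TXNDC5 (a disulfide isomerase), ERO1B (an oxidase that recharges such isomerases), SSR1 (a subunit of the translocon-associated complex) and SEC63 (a translocon partner of BiP). SSR1 and SEC63 were named after their values were seen. In the same list DESeq2 called 1 higher and 7 lower, against 8.03% higher and 7.77% lower of all tested genes. An unadjusted edgeR p under 0.05 was reached by 1 higher and 9 lower, against 13.6% and 12.7% of all tested genes. TXNDC5 had 5.79, 7.59 and 8.53 CPM in resistant and 10.7, 18.4 and 17.7 CPM in control libraries, a difference of -1.08 ± 0.13 (adjusted p = 0.00220). ERO1B had -0.84 ± 0.21 (adjusted p = 0.0390), SSR1 -0.63 ± 0.11 (adjusted p = 0.00873) and SEC63 -0.39 ± 0.10 (adjusted p = 0.0422). TXNDC5 and SSR1 lie on chromosome 6 in a stretch taken from earlier results of these data, where 56.8% of 366 tested genes were called lower with a median difference of -0.61. None of the 36 genes lies in that stretch or on chromosome X, so XBP1 and SYVN1 are outside both. On chromosome 11, which holds SYVN1, 7.12% of 786 tested genes were called lower, with a median difference of -0.11. On chromosome 22, which holds XBP1, 2.06% of 340 were called lower, with a median of 0.01.

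Of 13 other signalling genes 10 were tested, with 0 higher and 2 lower by edgeR, by DESeq2 and at an unadjusted p under 0.05. The edgeR calls were 20% of the 10 tested, against 5.48% of all tested genes. Of all tested genes DESeq2 called 7.77% lower, and 12.7% were lower at an unadjusted p under 0.05. MBTPS2, the protease that makes the second cut in ATF6, averaged 22.7 ± 4.12 CPM in resistant and 42.6 ± 3.44 CPM in control cells (SD, n = 3 each), a difference of -0.92 ± 0.11 (adjusted p = 0.00242). It lies on chromosome X, where 36.7% of 449 tested genes were called lower. CREB3, an ER-bound transcription factor released by the same kind of cleavage, averaged 28.2 ± 1.54 CPM in resistant and 49.4 ± 12.9 CPM in control cells, a difference of -0.80 ± 0.16 (adjusted p = 0.0153). Of 20 other degradation genes 19 were tested and 0 were called by edgeR. In that list 3 were lower at an unadjusted p under 0.05 (12.7% of all tested genes) and 2 by DESeq2 (7.77% of all tested genes). The most abundant, VCP, the ATPase that extracts proteins from the ER membrane, averaged 333 ± 18.6 CPM in resistant and 584 ± 219 CPM in control cells (adjusted p = 0.0506). VCP starts at 35056064 and CREB3 at 35732666 on chromosome 9. The part of position in their differences was not tested.

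Other genes that ATF4 is known to induce were called by edgeR at shares near those of all genes. Of 30 listed, 29 were tested, with 2 higher (6.90%, against 6.23% of all tested genes) and 1 lower (3.45%, against 5.48%) by edgeR. DESeq2 called 4 higher and 3 lower, against 8.03% higher and 7.77% lower of all tested genes. STC2, a secreted glycoprotein, averaged 33.0 ± 5.20 CPM in resistant and 21.8 ± 6.23 CPM in control cells (0.62 ± 0.12, adjusted p = 0.0107). SLC38A2, the amino acid transporter SNAT2, averaged 420.0 ± 95.5 CPM in resistant and 293 ± 94.1 CPM in control cells (0.53 ± 0.14, adjusted p = 0.0380). SLC6A9, a glycine transporter, had -0.36 ± 0.09 (adjusted p = 0.0392). Of 12 aminoacyl-tRNA synthetases 0 were called by edgeR or DESeq2, and 1 was lower at an unadjusted p under 0.05 (12.7% of all tested genes). The most abundant, EPRS1, averaged 755 ± 162 CPM in resistant and 921 ± 185 CPM in control cells (adjusted p = 0.184). Of 16 tested genes of one-carbon metabolism beyond the members 0 were higher and 1 was lower (6.25%, against 5.48% of all tested genes), MTR (methionine synthase), with 54.4 ± 13.5 CPM in resistant and 87.9 ± 14.2 CPM in control cells (-0.71 ± 0.09, adjusted p = 0.00294). DESeq2 called 0 higher and 2 lower there, against 7.77% lower of all tested genes. At an unadjusted p under 0.05 there were 3 lower, against 12.7% of all tested genes. MTR starts at 236795281 on chromosome 1, where ERO1B starts at 236215101. The part of position in their differences was not tested.

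Several of these calls did not survive the loss of a library, while the direction of the difference stayed the same. When the replicate number replaced the batch as a block, ERO1B, SEC63, SLC6A9 and SLC38A2 were no longer called. All 4 were also lost with any 1 resistant library or control replicate 1 left out, with the 2021 libraries alone and with no batch term. Leaving out replicate 1 of either line repeats the comparison of the 2021 libraries, so those losses are not separate. SEC63 was lost without control replicate 3 as well, and ERO1B with a minimum mean of 1 CPM. With a resistant library left out the difference was -0.92 to -0.73 for ERO1B (adjusted p up to 0.172), -0.41 to -0.37 for SEC63 (up to 0.195), -0.39 to -0.35 for SLC6A9 (up to 0.160) and 0.47 to 0.59 for SLC38A2 (up to 0.160). Without control replicate 3 the ERO1B difference was -0.56. Over all alternatives the difference was -1.03 to -0.56 for ERO1B, 0.41 to 0.64 for SLC38A2 and -0.94 to -0.59 for CREB3. SSR1, CREB3 and STC2 were lost without resistant replicate 2 or 3 and with no batch term, with adjusted p values up to 0.114, 0.0978 and 0.240 and differences of -0.63 to -0.58, -0.81 to -0.73 and 0.53 to 0.64. TXNDC5 and MTR were lost only with no batch term (adjusted p = 0.0656 and 0.155), and MBTPS2 was called under every alternative run. Among 12 proliferation genes 0 were called by edgeR. At an unadjusted p under 0.05 there were 4 lower (12.7% of all tested genes), and DESeq2 called 1 lower (7.77%). All 12 had a difference below 0 (50.6% of all tested genes), and their median was -0.25. Their median log2 deviation from each gene's mean was -0.19, -0.17 and 0.00 in resistant replicates 1, 2 and 3. In control replicates 1, 2 and 3 it was -0.01, 0.36 and 0.05, so control replicate 2 stood high and the lines overlapped.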

How the data were processed

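RNA was measured in 3 libraries of the paclitaxel-resistant derivative and 3 of its parent. Per the labels' protocols, 100 ng of total RNA went into KAPA RNA HyperPrep libraries captured with an exome panel, so a level also depends on how well a gene's exons are captured. The deposited values are whole-number counts per gene with no normalization. Per the submitters' processing notes, Trimmomatic 0.38, STAR 2.7.8a, featureCounts of Subread and GRCh38 were used. The sources used here do not give the annotation, the strand setting or the handling of multi-mapping reads, so reads of overlapping or antisense genes and of near-identical copies could not be told apart.

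Genes were named and placed from their Entrez IDs with the RefSeq table (GRCh38.p14), which named 27745 of 28395. IDs without a name held 0.0327% to 0.0553% of counts and were kept in the library sizes and in the tests. Exon lengths came from GENCODE 29, for 24715 IDs. Promoters were read from the RefSeq windows.

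Counts were tested in R 4.3.3 with edgeR 4.0.16: filterByExpr by line, TMM scaling, batch and line as terms, robust quasi-likelihood F test, and Benjamini-Hochberg adjustment over 13950 genes with a threshold of 0.05. Fitted log2 differences used edgeR's default prior count. Within-batch log2 differences and the check for overlap of libraries used log2 CPM with a prior count of 2, so their scale differs slightly. The SE was the absolute fitted log2 difference divided by the square root of F, and 95% intervals used the moderated degrees of freedom. The fit was tested on simulated data with known changes, where the share of false calls came out above the nominal threshold and changes of 1.5-fold were often missed. DESeq2 1.42.0, DESeq2 size factors, other filters, no batch term, the 2021 libraries alone, blocks by replicate number and leaving out each library were also run. A fit without robust estimation was added after seeing the data.

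Replicates were not near-copies, with a chi-square per degree of freedom of 70.0 to 215.3 between libraries of a line. Deviations from the line means correlated at 0.729, 0.143 and 0.155 between same-numbered libraries (replicates 1, 2 and 3), all over 0.1. Within 2021 the correlations were higher when the numbers were crossed, at 0.570 (resistant 3 with control 2) and 0.477 (resistant 2 with control 3). These deviations include the batch, so a correlation over 0.1 cannot show that the numbers pair the libraries. Whether they mark a pairing is unclear.

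The 36 genes, the other lists, the tests and the alternatives were chosen with earlier results of these data known. All 36 genes are reported. Of each other pathway list the text names up to 2 higher and 2 lower called genes with the largest difference and a mean of at least 1 CPM, or, where none was called, the most abundant gene.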

Additional observations from a re-analysis of the deposited data

Results flagged for a closer look

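In 7 of the 36 genes the resistant libraries lay on one side of the control libraries of their batch in 2021 and on the other side in 2020. The log2 differences (resistant minus control) were 0.026 in 2021 and -0.18 in 2020 for HSPA5, -0.16 in 2021 and 0.06 in 2020 for PDIA3, and -0.23 in 2021 and 0.17 in 2020 for SDF2L1. They were -0.094 in 2021 and 0.089 in 2020 for ATF6, -0.23 in 2021 and 0.02 in 2020 for ATF4, 0.20 in 2021 and -0.09 in 2020 for VLDLR, and 0.17 in 2021 and -0.015 in 2020 for CTH. There is 1 pair of libraries in 2020, so these opposite directions were picked out without a test. The share of all tested genes with the same pattern was not counted. The number of members that show it therefore has no background to be read against. The edgeR interaction fit over all 13950 genes called 0, these 7 included.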

How the results depend on the processing

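The number of members called lower, 2 as reported, was 4 with DESeq2, 1 with the 2021 libraries alone, 0 with no batch term, and 0 to 3 when each library was left out in turn. The number of all genes called, 1633 as reported, was 1012 with the 2021 libraries alone, 362 with no batch term and 617 to 1985 with a library left out. With no filter 17 genes were called for the interaction, against 0. With the replicate number as a block 1303 genes and the same 2 members were called (XBP1 adjusted p = 0.0240, SYVN1 adjusted p = 0.0433), and the block changed no call among the 36 genes. The crossed block called 2254 genes and 3 members, with TRIB3 as the third.

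Of 540 results of the 36 genes under 15 alternatives, 495 kept their direction and side of the threshold, 9 lost the call, 5 gained it and 31 turned direction. Those 31 came from 13 genes, reached 0.27 in size and had no adjusted p below 0.513. With a minimum mean of 1 CPM the turned values were 0.012 for PDIA4, 0.017 for DNAJB11, 0.0054 for DNAJC3, 0.00079 for HYOU1 and 0.021 for PPP1R15A. With 2021 alone they were 0.023 for HSPA5, -0.016 for PDIA6 and 0.0047 for PPP1R15A. With a library left out the ranges were -0.084 to 0.044 for PDIA4, -0.041 to 0.021 for DNAJB11, -0.085 to 0.057 for DNAJC3, -0.080 to 0.046 for HYOU1, -0.14 to 0.12 for PPP1R15A, -0.078 to 0.023 for HSPA5, -0.026 to 0.039 for PDIA6, -0.14 to 0.012 for SEL1L, -0.27 to 0.47 for DDIT3, -0.023 to 0.11 for PSPH, -0.034 to 0.11 for MANF, -0.10 to 0.028 for CRELD2 and -0.10 to 0.0097 for EIF2AK3. Also with a library left out, the serine and cysteine median ranged from -0.34 to -0.09 (-0.09 was reached without control replicate 2), the chaperone median from -0.08 to -0.04 and the ATF4 median from -0.15 to -0.00. With a minimum mean of 1 CPM the chaperone median was -0.017. The causes were not tested. Each line had 3 libraries, with 3 residual degrees of freedom in the fit, and the effect of depth was not tested.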
